A study of Mus musculus with 6 samples.

Results

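The genes described here are 10 transcription factors of the network that holds mouse embryonic stem cells in the naive state: Pou5f1 (Oct4), Sox2, Nanog, Esrrb, Zfp42 (Rex1), Tbx3, Nr0b1 (Dax1), Klf2, Klf4 and Klf5. They were taken by name, and all 10 have an entry among the 19571 genes that the authors tested. The RNA came from E14 cells, an established feeder-independent mouse line, grown on gelatin in serum with LIF, the cytokine that sustains self-renewal. 3 samples of Dot1L-/- cells made with CRISPR/Cas9 (Dot1l KO) were set against 3 samples of wild-type cells (WT), and all 6 carry the same age label, day 14. The labels speak of knockout cell lines but tie no sample to a line or clone, and do not say that replicates are separate cultures. The p-values therefore reflect only how these samples vary, which may be technical variation.

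Pou5f1 and Sox2 bind DNA side by side and, with Nanog, switch on one another and the other genes of the undifferentiated state. Around this core sit factors with overlapping roles in the naive state: the nuclear receptor Esrrb, the zinc finger proteins Klf2, Klf4 and Klf5, and the T-box factor Tbx3. LIF reaches the network through Stat3 and Klf4, while FGF and Mek-Erk signalling pushes cells away from it. Zfp42 and Nr0b1 are best known as markers of the naive state that the core factors control. Dot1l, the gene that was edited, encodes the enzyme that methylates lysine 79 of histone H3 along transcribed genes.

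The values come from 1 table that gives, for each gene, the mean normalized count over all 6 libraries, a log2 fold change, the standard error of that change (SE) and a p-value, without values for single samples. For each factor the level in each genotype was therefore worked out from the mean and the fold change with equal group sizes, and is called an implied level. Neither library depth nor the spread between samples is known. The table does not state which genotype a positive value favours. Positive values were taken to mean more RNA in Dot1l KO, since the deposited values of MERVL, an endogenous retrovirus that published work describes as held down by Dot1l, are positive. Every direction below would turn if that reading were wrong. Dot1l itself does not settle it, with a log2 fold change of -0.16 ± 0.25 (SE) and adjusted p = 0.845 according to the authors' deposited table. Adjusted p-values are those of the authors' DESeq2 test over all genes, and a gene passed at an adjusted p under 0.05.

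1 of the 10 factors rose in Dot1l KO (Tbx3), 1 fell (Nr0b1) and 8 did not pass. Over all genes, 6.58% passed, 5.34% as higher and 1.25% as lower, and 2 of only 10 factors is too few to read a difference from that share. At an unadjusted p under 0.05 the factors also gave 1 higher and 1 lower. Their fold changes were split evenly, with 5 positive and 5 negative and a median log2 fold change of 0.11, where the median over all genes was -0.02. The even split depends on the scale. Measured against the median of genes of like mean count, 6 were positive and 4 negative, with a median of 0.31. All 10 are abundant, with mean counts from 3662 to 31377, between percentiles 89.2 and 99.3 of all genes. The 2113 genes with a mean at or above that of Nr0b1, the lowest of the 10, had a median log2 fold change of -0.19, and 2.23% of those tested passed, 0.284% as higher and 1.94% as lower.

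**Figure D1:**
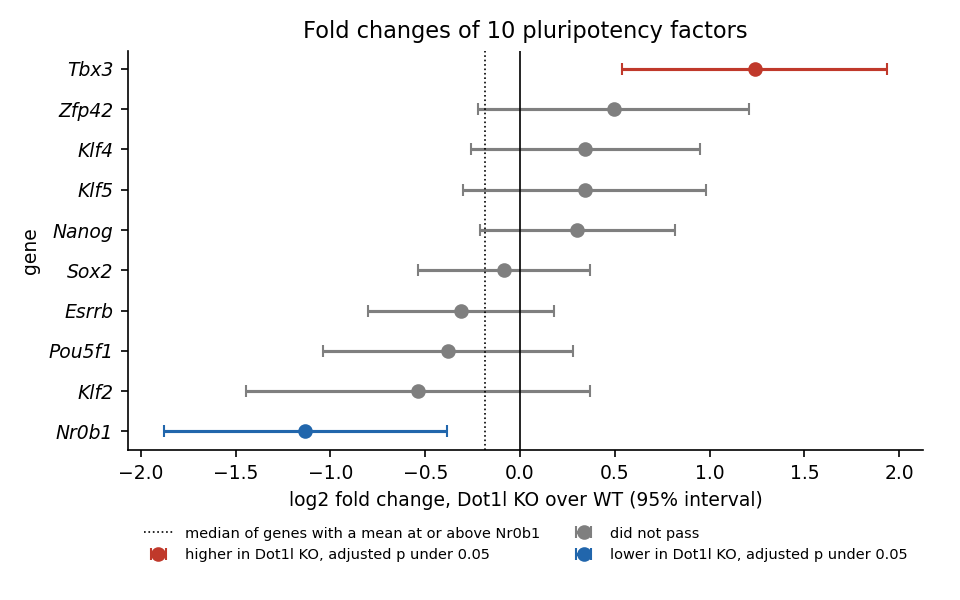
Log2 fold change of each factor (Dot1l KO over WT) with its 95% interval, from the authors' fit of 3 against 3 samples; the dotted line is the median of genes at least as abundant as Nr0b1. The intervals of Tbx3 and Nr0b1 lie on one side of 0, and those of the other 8 factors cross it.

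The core factors Pou5f1, Sox2 and Nanog did not pass. Pou5f1 (chromosome 17, 35506018 to 35510772, plus strand, 6 merged exons; coordinates here are GENCODE M21 on GRCm38, the assembly of mm10) encodes the POU factor without which stem cells turn towards trophoblast. Its implied level was 35492 normalized counts in WT and 27261 in Dot1l KO. The authors' deposited table gives Pou5f1 a log2 fold change of -0.38 ± 0.34 (SE) with adjusted p = 0.662 and a 95% interval of -1.04 to 0.28.

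Sox2 (chromosome 3, 34650405 to 34652461, a gene of 1 exon) encodes the HMG-box partner of Pou5f1. It had the smallest change of the 10, from an implied 14135 in WT to 13332 in Dot1l KO. In the authors' deposited table it stands at -0.08 ± 0.23 with adjusted p = 0.923, and the 95% interval of -0.54 to 0.37 was the narrowest among the factors. Measured against the median of genes of like mean count, its sign turned, to 0.11.

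Nanog (chromosome 6, 122707489 to 122714633, plus strand, 5 merged exons) encodes the homeodomain protein that lets cells renew with little LIF. Its implied level was 14425 in WT and 17790 in Dot1l KO, the only positive fold change among the core factors. The value for Nanog according to the authors' deposited table is 0.30 ± 0.26 with adjusted p = 0.653 and a 95% interval of -0.21 to 0.82. Thus Sox2 and Nanog had intervals within a log2 change of 1 in either direction, whereas that of Pou5f1 reached just beyond it on the lower side.

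The 300-base promoter sequences of RefSeq (GRCm38.p6; 250 bases before the start of transcription and 50 after) matched 8 of the 10 factors by symbol. Tbx3 and Klf5 had no match, so the factor that rose was not searched. They were searched on both strands for short letters known from sites of the network's own protein families, of STAT proteins and of general promoter elements. The octamer core ATGCAAA, read by POU factors, is found in 3 of the 8 promoters (Sox2, Nanog and Zfp42) and in 4.59% of all 27025 promoters. It is absent from those of Pou5f1, Esrrb, Klf2 and Klf4, which did not pass either, and from that of Nr0b1, which fell. The TATA box letters TATAAA occur in 1 of the 8, that of Nr0b1, and in 14.2% of all promoters. The promoters of Pou5f1, Esrrb, Klf2 and Klf4 hold neither run of letters and are not shown. Windows of 60 bases around the octamer and TATA matches are shown for 3 factors that did not pass and for the one that fell. Each is written on the gene's own strand, with the match in capitals, so the octamer core of Nanog and Zfp42 appears as its reverse complement.
Sox2 (chr3:34649856-34649915, plus strand): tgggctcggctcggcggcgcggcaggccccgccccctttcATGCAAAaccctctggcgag
Nanog (chr6:122707374-122707433, plus strand): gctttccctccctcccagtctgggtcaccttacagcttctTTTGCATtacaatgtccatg
Zfp42 (chr8:43307175-43307234, minus strand): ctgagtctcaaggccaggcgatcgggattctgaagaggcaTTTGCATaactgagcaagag
Nr0b1 (chrX:86191703-86191762, plus strand): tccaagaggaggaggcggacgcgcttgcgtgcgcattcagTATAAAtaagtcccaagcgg

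The match begins 99 bases before the start of Sox2, 75 before that of Nanog and 185 before that of Zfp42, and the TATA letters begin 32 bases before the start of Nr0b1. These distances are to RefSeq starts, which differ from the GENCODE positions given here for Sox2, Zfp42 and Nr0b1. For Sox2 the 250 bases before the RefSeq start end at 34649994, upstream of the GENCODE start at 34650405. The GC box letters GGGCGG are in 5 of the 8 promoters (Klf2, Klf4, Pou5f1, Sox2 and Zfp42) and in 35.9% of all, and CCAAT in 3 of the 8 and 37.9% of all. ACAAAG, letters of SOX sites, are in the promoters of Sox2 and Nr0b1 and in 18.7% of all. GGTGTG, shared by KLF and T-box sites, is in those of Esrrb and Zfp42 and in 19.0% of all. The STAT letters TTCNNNGAA are in that of Esrrb and in 8.47% of all. The letters AAGGTCA, bound by Esrrb, are in 0 of the 8 and in 4.66% of all, which says only that these windows lack them. A match is a run of letters and not a measured binding site.

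Esrrb and Zfp42, among the strongest naive markers, did not pass either. Esrrb (chromosome 12, 86361117 to 86521628, plus strand, 10 merged exons) encodes an orphan nuclear receptor that can stand in for Nanog. Its implied level went from 29973 in WT to 24181 in Dot1l KO, and the authors' deposited table has -0.31 ± 0.25 with adjusted p = 0.620. Zfp42 (chromosome 8, 43295063 to 43306980, minus strand, 5 merged exons) encodes a zinc finger protein used to tell naive cells from primed ones. Its implied level was 22682 in WT and 31939 in Dot1l KO, the largest positive change among the 8 that did not pass. For Zfp42 the authors' deposited table reads 0.49 ± 0.36 with adjusted p = 0.570 and a 95% interval of -0.22 to 1.21.

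Zfp42 has an annotated pseudogene among the genes tested. Zfp42-ps1 (chromosome 15, 93679160 to 93679649, minus strand), a processed pseudogene, has a mean of 1474 normalized counts beside 27310 for Zfp42. Per kb of merged exon, the means are 3008 for Zfp42-ps1 and 14519 for Zfp42. The fold change of Zfp42-ps1 is 0.11 ± 0.48 with adjusted p = 0.953 according to the authors' deposited table. The sources used here do not give how reads that fit both places were counted, so the level of Zfp42 carries that uncertainty. Nanog also has annotated processed pseudogenes, Nanog-ps1 and Nanog-ps2, with no entry among the genes tested. The level of Nanog carries the same uncertainty.

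The Krüppel-like factors Klf2, Klf4 and Klf5 bind the same GC-rich and CACCC-type sites and can replace one another in part. None of the 3 passed, at adjusted p-values of 0.650, 0.666 and 0.696 according to the authors' deposited table. Klf4 (chromosome 4, 55527143 to 55532466, minus strand), the member switched on by LIF and Stat3, had implied levels of 5246 in WT and 6666 in Dot1l KO. Klf5 (chromosome 14, 99298691 to 99315036, plus strand), which also serves the trophectoderm, had 5488 and 6954. Their log2 fold changes according to the authors' deposited table are nearly equal, 0.35 ± 0.31 for Klf4 and 0.34 ± 0.33 for Klf5.

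Klf2 (chromosome 8, 72319033 to 72321656, plus strand, 3 merged exons), the member that Pou5f1 sustains and Mek-Erk signalling destabilises, had the opposite sign. Its implied level was 25780 in WT and 17737 in Dot1l KO, and the authors' deposited table has -0.54 ± 0.46. This SE was the largest of the 10 and lay at percentile 96.6 among genes of like mean count (genes were placed in 20 bins of equal size by mean). The 95% interval of Klf2 ran from -1.45 to 0.37, so levels from 0.367 to 1.29 times that of WT lie within it. No test of the difference between Klf2 and the other KLF genes could be made without values per sample.

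Tbx3 was the factor that rose. It encodes a T-box repressor that supports self-renewal and, at high levels, is known for its part in primitive endoderm. Tbx3 lies on chromosome 5 (119670669 to 119684724, plus strand, 9 merged exons). Its implied level rose from 3501 normalized counts in WT to 8253 in Dot1l KO, a 2.36-fold difference with a 95% interval of 1.45 to 3.83. The authors' deposited table gives Tbx3 a log2 fold change of 1.24 ± 0.36 (SE) with adjusted p = 0.0127. The call was kept under 4 of 7 other settings and was lost at a threshold of 0.01, with Bonferroni adjustment, and when the Wald statistics were scaled by their interquartile range (adjusted p = 0.182).

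Few genes as abundant as these rose. Among the 2112 genes tested with a mean at or above that of Nr0b1, 6 passed as higher, and Tbx3 had the second largest fold change of them. The other 5, named after their values were seen, are the desmosomal plakophilin Pkp2, the autophagy gene Gabarapl2, the linker histone H1f0, the de novo DNA methyltransferase Dnmt3a and the predicted gene Gm26917. In the authors' deposited table they range from 0.83 (Gm26917) to 1.31 (Pkp2).

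Nr0b1 was the factor that fell. It encodes an unusual nuclear receptor without a classical DNA-binding domain, an X-linked partner and brake of Pou5f1, Esrrb and Nr5a2. Nr0b1 lies on the X chromosome (86191764 to 86195947, plus strand, 2 exons), and its implied level was 5030 normalized counts in WT and 2293 in Dot1l KO. It fell by 1.13 ± 0.38 (SE) on the log2 scale according to the authors' deposited table, adjusted p = 0.0455, which leaves 0.456 of the WT level with a 95% interval of 0.272 to 0.765. This call stands at the edge of the threshold. It was kept under 1 of 7 other settings, and centring on the median of all genes took its adjusted p to 0.0512, centring within bins of mean count to 0.163.

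**Figure D2:**
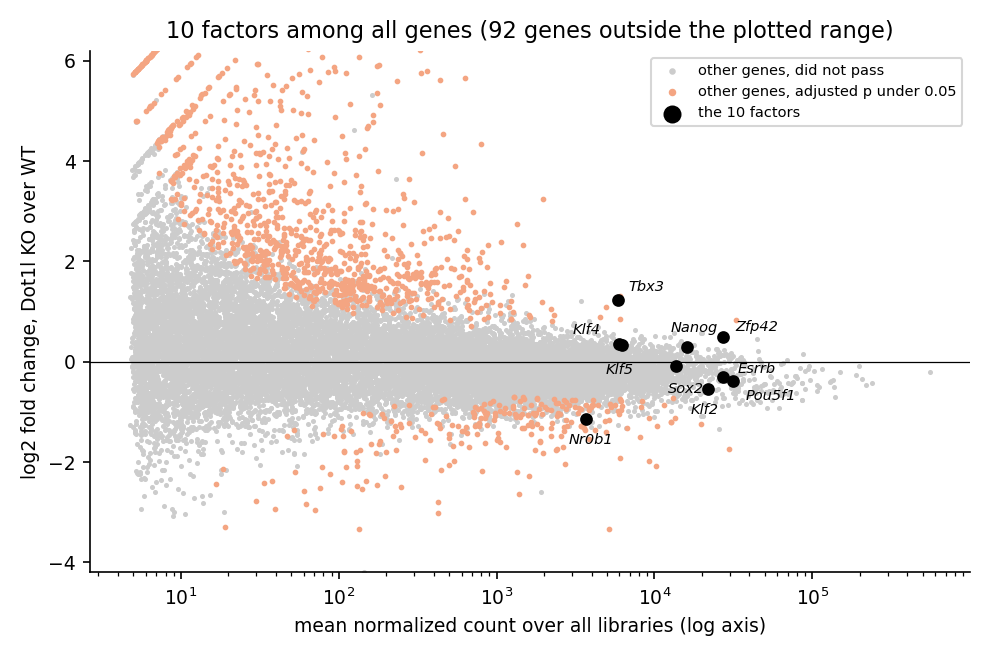
Each point is a gene, with the mean normalized count over all libraries on a log axis and the log2 fold change (Dot1l KO over WT) on the vertical axis; 92 genes lie outside the plotted range. The 10 factors sit in the abundant part of the table, where few genes passed, with Tbx3 near the upper edge of the cloud and Nr0b1 near the lower.

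The precision differs between factors and sets what could be seen. The smallest absolute Wald statistic that passed was 2.94. With that cut, a log2 change of 0.68 was needed for Sox2, 0.77 for Nanog, 0.99 for Pou5f1 and 1.36 for Klf2. The SE was above the median of genes of like mean count for 7 of the 10 factors. With these SEs, an estimated change of less than 1.60-fold would not have passed for any of the 10, and Klf2 needed an estimate of 2.57-fold. These cuts apply to the estimate and set no limit on the true change. For 5 of the 10 the 95% interval did not stay within a log2 change of 1. For these 8 factors the missing call does not show equal levels.

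Per kilobase of merged exon, the factors covered a wide range of levels. Zfp42 was highest with a mean of 14519 normalized counts per kb, ahead of Pou5f1 with 13958 and Klf2 with 11780. Nanog with 7184, Sox2 with 6677 and Esrrb with 4478 came next, and Nr0b1 with 2025, Klf4 with 1953, Klf5 with 1196 and Tbx3 with 887 were lowest. Taking the longest transcript as the length moved Pou5f1 to 23037 per kb, above Zfp42 with 14867, and left the other ranks as they were. Without values per sample the spread of these levels is unknown, so neighbours in this order cannot be told apart by a test. In the implied levels per kb of merged exon, Nr0b1 was 2782 in WT and 1268 in Dot1l KO, and Tbx3 went from 528 to 1246. On that length these genes lay apart in WT and close together in Dot1l KO. The nearness depends on the length taken. With the longest transcript the mean of Tbx3 was 1180 per kb in place of 887, while Nr0b1 stayed at 2025.

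**Figure D3:**
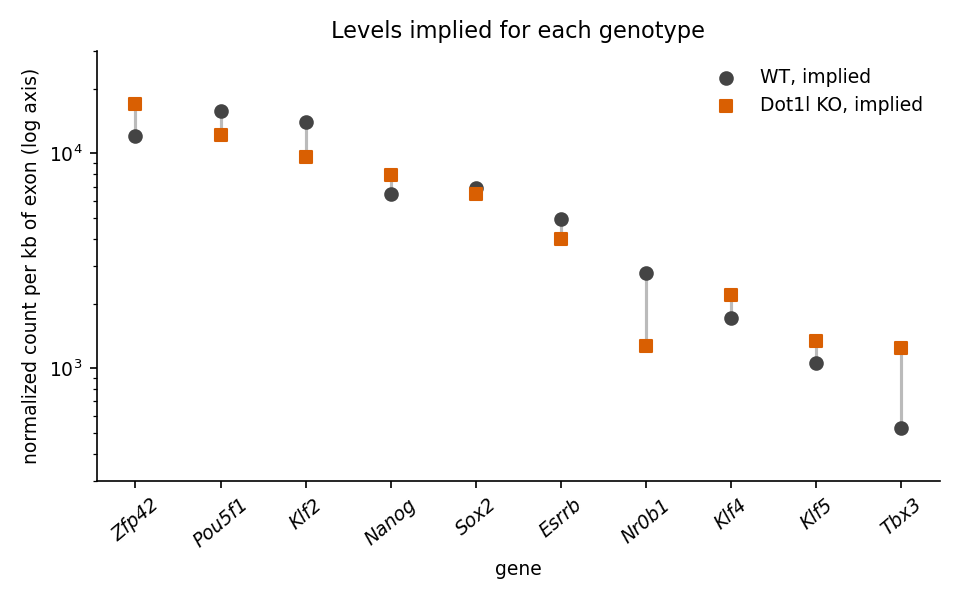
Implied normalized count per kb of merged exon for each factor (log axis), with WT as circles and Dot1l KO as squares joined by a line, ordered by mean level. The widest gaps are those of Nr0b1 (2782 to 1268) and Tbx3 (528 to 1246).

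Some factors share sequence or space with other transcripts. Pou5f1 overlaps the annotated antisense gene Gm19553 over 317 exonic bases, and Tbx3 overlaps the antisense gene Tbx3os1 over 115. Sox2 lies inside the long non-coding gene Sox2ot on the same strand, with 0 shared exonic bases. The sources used here do not give whether counting used strand, so reads from either antisense pair cannot be told apart. Sox2ot had a mean of 59.7 with 0.35 ± 0.47, and Tbx3os1 a mean of 41.8 with 0.07 ± 0.56, according to the authors' deposited table, and neither passed. Both are far below the counts of Sox2 (13734) and Tbx3 (5877).

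Genes whose start lies within 250 kb of a factor's start numbered 73. Of these, 5 rose and 1 fell, which is 8.22% beside 6.58% over all genes, with a median log2 fold change of 0.10. Within 500 kb there were 147, of which 4.76% passed, with a median of -0.04, so no excess of calls near the factors can be read from these shares. Around Esrrb, Zfp42, Sox2, Tbx3, Klf2, Klf4 and Klf5, 0 neighbours passed. Around Pou5f1, in the class I histocompatibility region, 1 of 19 passed, the mucin-like gene Mucl3, with 2.09 ± 0.43 and adjusted p = 6.58e-05 according to the authors' deposited table.

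The Nanog neighbourhood holds other genes of early embryos, and they did not move as one. Dppa3 (chromosome 6, 122626410 to 122630272), which guards DNA methylation in the zygote and marks naive cells, starts 81.1 kb upstream of Nanog. It fell by 2.17 ± 0.38 on the log2 scale according to the authors' deposited table, adjusted p = 2.21e-06, from an implied 726 in WT to 162 in Dot1l KO, while Nanog beside it had 0.30. Gdf3, a TGF-beta family ligand 97.4 kb upstream, had -1.07 ± 0.46 with adjusted p = 0.167, and the glucose transporter gene Slc2a3 on the other side had -0.31 ± 0.35 with adjusted p = 0.758, according to the authors' deposited table. Mfap5, a microfibril protein 202 kb upstream, rose with 1.81 ± 0.34 and adjusted p = 9.77e-06 according to the authors' deposited table. Dppa3 and Mfap5 are the 2 of 13 neighbours of Nanog that passed.

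Beside Nr0b1, which fell, the neighbours were higher. All 3 that were tested, Mageb4, Mageb10-ps and Gm41, start 110 to 154 kb downstream and passed as higher. These belong to or lie among the X-linked Mage genes, a multicopy family of the testis, and Mageb10-ps lies within the span of Mageb4, so their single values are uncertain. In the authors' deposited table Mageb4 has 4.94 ± 0.66 with adjusted p = 2.44e-11 at a mean of only 64.0, against 3662 for Nr0b1.

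Around Tbx3, 4 non-coding genes were tested and 0 passed. Tbx3os2, downstream on the opposite strand, had 1.33 ± 0.53 with adjusted p = 0.130, and the upstream predicted genes Gm16063 and Gm16064 had 1.61 ± 0.59 and 1.64 ± 0.78, according to the authors' deposited table. These fold changes are of the size seen for Tbx3 but rest on mean counts from 15.4 to 41.8. Tbx3os1, which overlaps the start of Tbx3, had 0.07.

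**Figure D4:**
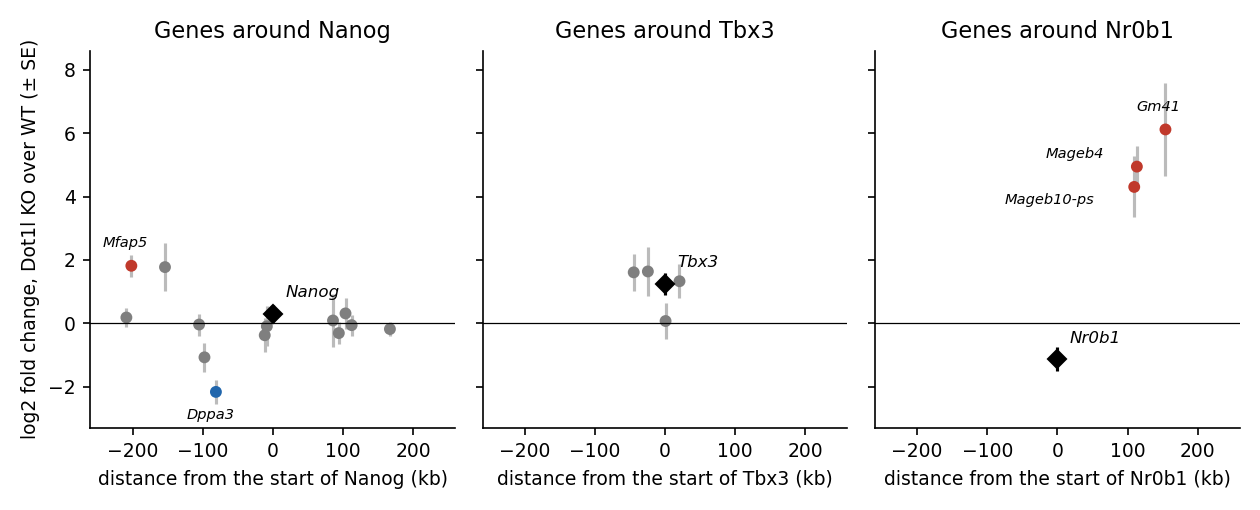
Log2 fold change (Dot1l KO over WT, ± SE) of genes by distance of their start from the start of Nanog, Tbx3 or Nr0b1 in kb, with the factor as a black diamond, red for genes that passed as higher, blue as lower and grey for the rest. Dppa3 is low beside Nanog, 3 of the 4 genes around Tbx3 lie near its own value, and the 3 genes beside Nr0b1 are high while Nr0b1 is low, though the height of Gm41 is a fitted value at almost no WT reads.

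Few of the other transcription factors that work with these 10 passed. Of 41 partner factors, 0 rose and 3 fell (7.32%), beside 6.58% of all genes that passed, 5.34% as higher and 1.25% as lower. Of genes at least as abundant as Nr0b1, 1.94% passed as lower. The 3 falls are too few to read a difference from these shares. The partners had a median log2 fold change of -0.22, close to the median of -0.19 for abundant genes, and -0.03 once centred within bins of mean count. Foxp1, a forkhead factor with a stem cell splice form, stands at -1.27 ± 0.32 with adjusted p = 0.00260, and Tfe3, a bHLH factor that Esrrb depends on in the naive state, at -1.02 ± 0.28 with adjusted p = 0.00764, according to the authors' deposited table. Tcf7l1, the Wnt-pathway repressor that holds down Nanog and Esrrb, is at -0.99 ± 0.34 with adjusted p = 0.0498 according to the authors' deposited table. Tfcp2l1, a close companion of Esrrb, had -0.46 ± 0.31, and Prdm14, a repressor of FGF signalling, 0.35 ± 0.28, according to the authors' deposited table, and neither passed. Centred within bins of mean count, Foxp1 was still called, and Tfe3 (adjusted p = 0.0593) and Tcf7l1 (adjusted p = 0.174) were not.

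Among genes known as targets of the network, Dppa3 and Spp1 fell. Of 34 targets, 0 rose and 4 fell (11.8%), beside 6.58% of all genes that passed, 5.34% as higher and 1.25% as lower. Their median was -0.29, or -0.11 once centred within bins of mean count. Of genes as abundant as the 10 factors, 6 passed as higher and 41 as lower. Of Dppa3, Spp1 and Mras, only Spp1 (mean 13573) is that abundant, against 444 for Dppa3 and 1663 for Mras. Over all genes the calls went mostly the other way, 1044 higher and 244 lower. Whether the direction is particular to the targets was not tested. Among the 4 are Dppa3, the secreted phosphoprotein Spp1 (-1.11 ± 0.23, adjusted p = 0.000133) and the small GTPase Mras (-1.45 ± 0.48, adjusted p = 0.0393), according to the authors' deposited table. Mras was no longer called once centred (adjusted p = 0.124). Classical targets of Pou5f1 and Sox2 did not pass: Fgf4 had -0.25 ± 0.27 and Utf1, counted among the partners, -0.76 ± 0.44 according to the authors' deposited table.

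Signals that feed the network changed at a few points. Of 27 genes of the LIF, BMP, Wnt and FGF pathways, 1 rose and 4 fell (18.5%, beside 6.58% of all genes), with a median of -0.09 that became 0.09 once centred within bins of mean count. Pim1, a kinase gene switched on by LIF and Stat3, fell by 1.37 ± 0.27 on the log2 scale according to the authors' deposited table, adjusted p = 3.31e-05. Stat3 itself had -0.08 ± 0.28, the LIF receptor gene Lifr 0.17 ± 0.28 and the feedback inhibitor Socs3 -0.38 ± 0.34 according to the authors' deposited table, and none of these passed. Mapk3, which encodes Erk1, is at -0.98 ± 0.32 with adjusted p = 0.0346 and the receptor gene Fgfr2 at -2.50 ± 0.37 with adjusted p = 3.30e-09 according to the authors' deposited table. The fourth fall was Tcf7l1, and the rise was Lef1, a Wnt effector, at 2.46 ± 0.43 with adjusted p = 1.61e-06 according to the authors' deposited table. Centred within bins of mean count, Pim1 and Fgfr2 were still called, and Mapk3 (adjusted p = 0.147) and Tcf7l1 were not.

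Relatives of the factors by protein family gave few calls, at shares near that of all genes (6.58%). Of 14 other KLF genes 1 rose and 0 fell (7.14%): Klf17, a KLF gene of the early embryo, at 2.55 ± 0.82 with adjusted p = 0.0348 and a mean of only 45.3 according to the authors' deposited table. That call was lost when the fold changes were centred within bins of mean count. The median of these 14 was -0.14, or 0.05 so centred. Of 20 relatives of the other factors tested, 2 passed (10%). 1 rose, the POU gene Pou2f3 (1.85 ± 0.50, adjusted p = 0.00683), and 1 fell, the SOX gene Sox21 (-1.79 ± 0.53, adjusted p = 0.0157), according to the authors' deposited table.

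Genes that the network holds down or that mark the next stage were higher in part. Of 14 genes of the primed epiblast tested, 3 rose and 0 fell (Lef1, Otx2 and Dnmt3a), beside 5.34% of all genes that rose, with a median of 0.42, or 0.51 once centred within bins of mean count. Their signs were mixed, with 8 positive and 6 negative. Dnmt3b (-0.11 ± 0.25) and Pou3f1 (-0.48 ± 0.40) are among the negative ones and did not pass, according to the authors' deposited table. Otx2, a homeodomain factor that moves cells out of the naive state, went from an implied 315 in WT to 1260 in Dot1l KO, with adjusted p = 0.00142 according to the authors' deposited table. Of 21 lineage regulators tested that Pou5f1, Nanog and their partners repress in stem cells, 6 rose and 1 fell, beside 5.34% and 1.25% of all genes, with a median of 1.09, or 0.91 so centred. The endoderm factor Gata6, which Nanog represses, has 2.81 ± 0.68 with adjusted p = 0.00138 and the neural factor Neurog1 2.65 ± 0.48 with adjusted p = 4.94e-06, according to the authors' deposited table. The homeodomain factor Meis2 has 2.35 ± 0.57 with adjusted p = 0.00154 and the endoderm factor Sox7 1.86 ± 0.59 with adjusted p = 0.0280, according to the authors' deposited table, and Sox17 was the other endoderm factor to pass. Once centred, Sox7 (adjusted p = 0.148) and Sox17 (adjusted p = 0.114) were no longer called. The trophoblast factor Elf5 passed with adjusted p = 8.97e-05 according to the authors' deposited table, at an implied WT level below that of 1 read, so no fold is given. The one that fell was the eye and neural factor Pax6 (-2.79 ± 0.44, adjusted p = 5.29e-08 according to the authors' deposited table). The 6 that rose have mean counts of at most 83.6, against 3662 or more for the 10 factors. Of the 162 distinct genes tested in the 7 lists, 8 stand in more than 1 list.

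**Figure D5:**
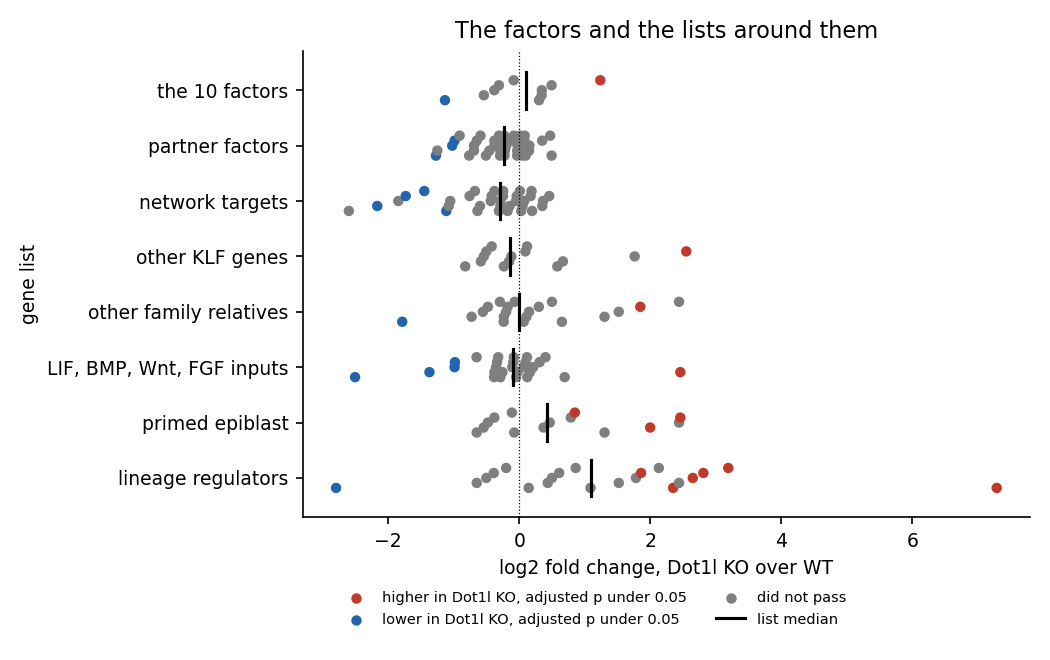
Log2 fold change (Dot1l KO over WT) of each gene by list, red for genes that passed as higher, blue as lower and grey for the rest, with a black bar at the list median; the rightmost point is Elf5, whose fitted value is no fold because its WT level is that of no reads. Medians go from -0.29 for network targets to 1.09 for lineage regulators, with the 10 factors at 0.11.

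Markers of other cell types moved in these samples, and their part in the values above was not tested. The shares to set beside the counts below are 5.34% of all genes as higher and 1.25% as lower. Of 10 markers of undifferentiated stem cells, all of them already among the targets (8) or partners (2), such as Dppa5a, Lin28a and Sall4, 0 rose and 0 fell by the authors' DESeq2 test (at an unadjusted p under 0.05, 1 higher and 1 lower), and their implied levels summed to 207144 in WT and 177294 in Dot1l KO. Primitive endoderm markers, Gata6, Sox7 and Sox17 of the lineage list among them, had 6 of 9 tested higher (10 listed), with implied sums of 3224 and 4830. Most of these sums comes from Lama1, with a mean of 3234. It did not pass, at 0.33 ± 0.27 with adjusted p = 0.629 according to the authors' deposited table. For fibroblast markers 4 of 6 tested were higher (10 listed), with sums of 1077 and 2394. Trophectoderm markers, most of which also stand in the lists above, had 2 of 10 higher, with sums of 4405 and 4467. These were Krt8 and Elf5, and Elf5 was already counted among the lineage regulators. Markers of the 2-cell-like state had 8 of 10 higher, with sums of 33.9 and 2144. In bulk RNA, fewer cells with a gene on and less RNA per cell cannot be told apart.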

How the data were processed

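RNA of 6 samples of mouse E14 embryonic stem cells (3 Dot1l KO, 3 WT) was sequenced as total RNA. Per the submitters' processing notes, the authors used HISAT2 2.1.0, featureCounts 2.0.0, DESeq2 and the build mm10. The mean signal was deposited by the authors as read counts divided by size factors and averaged over libraries, per the file headers. Each gene's log2 fold change and its SE were also deposited by the authors. The Wald statistic is a score, per the file headers, and was checked to be the log2 fold change over its SE. The p-value and its Benjamini-Hochberg adjustment are the authors' own, per the file headers; recomputing the adjustment gave the same values, and 7 genes have no p. Values per sample were not analysed here, so depth per sample is unknown, the planned edgeR or limma fits were not possible, and all calls are the authors' DESeq2 calls.

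Intervals are 95% normal intervals. Implied levels assume equal group sizes; an implied level under 0.25 was taken as no reads. Lengths and positions are from GENCODE M21, which matched 19562 of 19571 symbols, 39 of them at several loci (the first was used). Promoters are from RefSeq (GRCm38.p6), with the first start listed per gene. Named genes were the 10 factors and, in each of 7 lists, up to 6 genes past the threshold by smallest p (the 2 smallest where none passed); others were named after their values were seen. A gene that this rule names among the network targets is not reported here. The factors and lists were chosen with earlier results of these data known. The alternatives were a threshold of 0.01, an absolute log2 change of 1 or more, fold changes centred on the median of all genes, fold changes centred inside 20 equal bins by mean count, only genes with a mean of 50 or more, scaled Wald statistics and Bonferroni adjustment. The recomputed adjustments were tested on simulated data. Transposable element copies near the factors were not analysed, because the copy names carry no positions, and the planned protein comparison was not made. Python 3.11.15, pandas 2.3.3, scipy 1.17.1 and matplotlib 3.10.9 were used.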

Additional observations from a re-analysis of the deposited data

How the results depend on the processing

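No paired analysis was possible because the deposited tables hold no values per sample; for the same reason no replicate could be left out and no edgeR or limma fit was made. The 7 alternatives reuse the authors' fold changes and p-values. For each setting mostly the larger changes in count are listed, so a count left out need not be unchanged. At an adjusted p threshold of 0.01, the factors gave 0 higher and 0 lower, all genes 661 higher and 106 lower, other KLF genes 0 higher, family relatives 0 lower and signalling inputs 2 lower. With an absolute log2 change of at least 1, signalling inputs gave 2 lower. Centred on the median of all genes, the factors gave 0 lower. Centred within bins of mean count, they gave 0 lower, partner factors 1 lower, other KLF genes 0 higher and signalling inputs 2 lower. So centred, all genes gave 752 higher and 159 lower, lineage regulators 4 higher and network targets 3 lower. With a mean of at least 50, the factors gave 0 lower, all genes 517 higher, other KLF genes 0 higher and lineage regulators 3 higher. With Wald statistics scaled by their interquartile range (a factor of 1.30), the factors gave 0 higher and 0 lower, all genes 405 higher and 50 lower, partner factors 0 lower, other KLF genes 0 higher, family relatives 0 higher and 0 lower, signalling inputs 2 lower, primed epiblast genes 1 higher and lineage regulators 2 higher. Bonferroni adjustment gave 275 higher and 34 lower over all genes and, for every list and the factors, the same counts as the scaled Wald statistics. Over these alternatives the log2 fold change of Tbx3 ran from 1.24 to 1.41 with adjusted p from 0.00335 to 1, and that of Nr0b1 from -1.13 to -0.95 with adjusted p from 0.0455 to 1. The sign of Sox2 turned, to 0.11, when centred within bins of mean count, and it passed in none of the settings. With the longest transcript as length, levels per kb became 23037 for Pou5f1, 6297 for Esrrb, 1180 for Tbx3 and 1856 for Klf5. Neighbours within 500 kb gave 6 higher and 1 lower of 147 (4.76%), against 5 and 1 of 73 (8.22%) within 250 kb. Without counts per library, the depth behind each value is unknown.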
